A study of Bos taurus with 9 samples.

Results

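The regions described here were doubly acetylated regions with RNA polymerase II (RNA pol II) in the rumen epithelium of calves before weaning. A region was chosen by overlap: it was an H3K27ac peak before weaning that shared at least 1 bp with an H3K9ac peak and at least 1 bp with an RNA pol II peak of the same time point. This rule selected 1056 of the 74249 H3K27ac peaks before weaning, in a series of 130580 peaks over 8 lists. The presence of H3K27ac, H3K9ac and RNA pol II before weaning was therefore set by the choice and is no result, and the same holds for what follows from it, such as a tendency to wide peaks, which meet other peaks more easily.

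The tissue was rumen epithelium from Holstein calves, a dairy cattle breed, collected before weaning and after weaning, and its chromatin was immunoprecipitated and sequenced. The 4 targets were H3K9ac, H3K27ac, H3K9me3 and RNA pol II, with 1 library for each target and time point, so no difference between time points has a replicate error and none was tested. The labels give no age, number of animals or treatment, so whether an animal or several gave a library is not stated in them. All lists were called against 1 input library (chromatin sequenced without immunoprecipitation), for which the labels give no time point and which has no list here. The labels place the shorter of both RNA pol II lists after weaning, the study's own text places it before weaning, and the labels were followed.

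Acetylation of histone H3 at lysines 9 and 27 is a feature of chromatin at active promoters, where RNA pol II is loaded onto the gene. H3K27ac also marks active enhancers away from gene starts, so a site that carries both acetylations and the polymerase is promoter-like in its marks. Trimethylation of lysine 9 (H3K9me3) is typical of repressed, condensed chromatin and of repeats. The rumen is the fermentation chamber of the cattle stomach, and its epithelium matures as a calf moves from milk to solid feed. Whether the regions lie at gene starts was not analysed here, because no gene models of the assembly used by the lists (UMD3.1.1) were at hand, and no sequence or gene name is given for the same reason.

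A peak was called touched, or kept when it met a peak of the same target after weaning, if at least 1 bp was shared. Over all 74249 H3K27ac peaks before weaning, 15.3% touched H3K9ac and 2.07% touched RNA pol II before weaning, the lists that the choice used. The lists that the choice did not use gave the following background: 27.9% touched H3K27ac after weaning, 2.01% H3K9ac after weaning, 0.0768% RNA pol II after weaning, 0.0741% H3K9me3 before weaning and 0.106% H3K9me3 after weaning. Values in parentheses after a share are its 95% Wilson confidence interval, which covers only the counting error and treats neighbouring peaks as independent, which they may not be.

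Almost all of the regions still carried H3K27ac after weaning, few carried H3K9ac, and very few carried RNA pol II. H3K27ac after weaning was found at 987 of the 1056 regions, 93.5% (91.8 to 94.8), against 27.9% of all H3K27ac peaks. H3K9ac after weaning was found at 168 regions, 15.9% (13.8 to 18.2), against 2.01% of all. RNA pol II after weaning was found at 43 regions, 4.07% (3.04 to 5.44), against 0.0768%. Without the regions that touched H3K9me3 at either time point, it was found at 11 of 1022, 1.08% (0.602 to 1.92). The lists after weaning were shorter for each of these targets, with 30446 peaks for H3K27ac, 2127 for H3K9ac and 738 for RNA pol II. These values hold for the RNA pol II lists as labelled: with both lists exchanged, 46 regions were selected, of which 97.8% had H3K27ac and 73.9% had H3K9ac after weaning, and 93.5% had a peak in the other RNA pol II list.

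H3K9me3, the repressive mark, was found at few of the regions at both time points, with the RNA pol II lists as labelled. It was found at 31 regions before weaning, 2.94% (2.08 to 4.14), against 0.0741% of all H3K27ac peaks, and at 33 regions after weaning, 3.12% (2.23 to 4.36), against 0.106%. The 2 sets were nearly the same, since 30 regions touched H3K9me3 at both time points and 34 touched it at either. The 483 H3K27ac peaks with RNA pol II and without H3K9ac touched H3K9me3 in 1.04% (0.443 to 2.40) at each time point. That interval overlaps both intervals of the regions. Among the 1023 regions wider than the median of all H3K27ac peaks, the shares were 0.587% before and 0.880% after weaning. With the RNA pol II lists exchanged, 63.04% of the 46 regions touched H3K9me3 before and 69.6% after weaning. By the labels, the H3K9me3 libraries of the time points came from different sequencing lanes, and for this mark an effect of lane cannot be told apart from one of time.

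**Figure D1:**
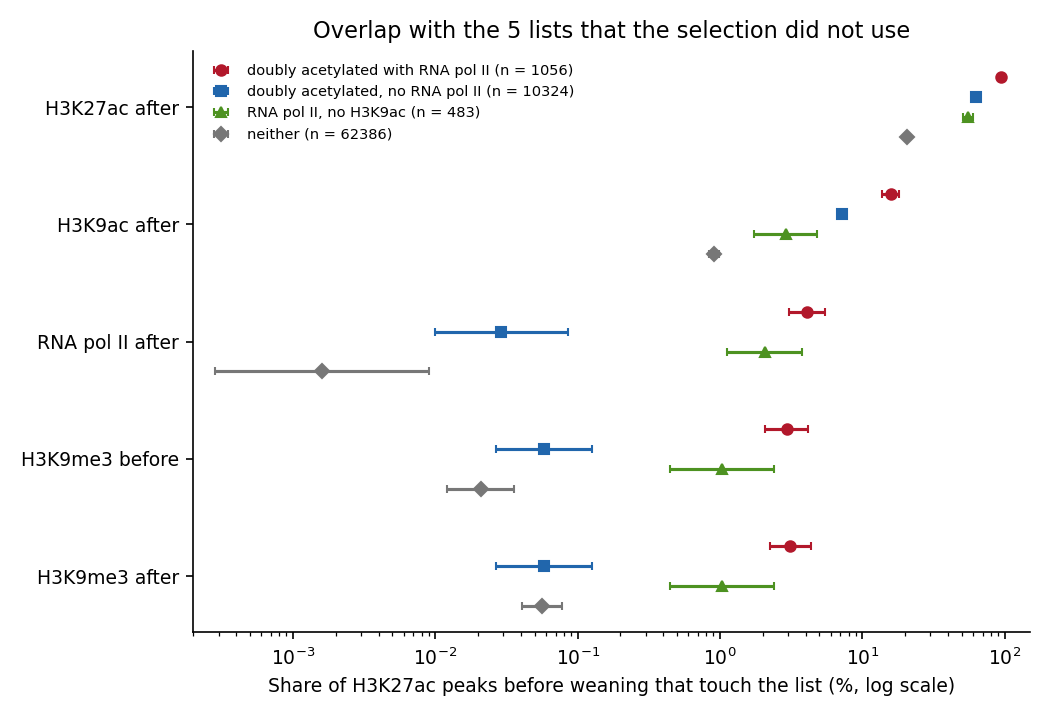
Share of H3K27ac peaks before weaning (horizontal axis, percent, log scale) that touched each of the 5 lists not used by the selection, for the 1056 doubly acetylated regions with RNA pol II and the 3 other classes of H3K27ac peak. Bars are 95% Wilson intervals. The doubly acetylated regions with RNA pol II range from 93.5% for H3K27ac after weaning to 2.94% for H3K9me3 before weaning. Their intervals for RNA pol II after weaning and both H3K9me3 lists overlap those of peaks with RNA pol II and without H3K9ac. Their share with RNA pol II after weaning is 1.08% without the regions that touched H3K9me3.

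For comparison, the other H3K27ac peaks before weaning were put in 3 classes. The most like were 10324 doubly acetylated peaks without RNA pol II, followed by 483 peaks with RNA pol II and without H3K9ac, and 62386 peaks with neither. H3K27ac was kept at 62.9% (62.0 to 63.8) of the doubly acetylated peaks without RNA pol II, at 55.5% (51.03 to 59.9) of those with RNA pol II alone and at 20.8% (20.4 to 21.1) of those with neither. None of these intervals met the interval of the regions, 91.8 to 94.8%. The order was similar for H3K9ac after weaning, with 7.19% (6.70 to 7.70) of the doubly acetylated peaks without RNA pol II, 2.90% (1.73 to 4.81) of those with RNA pol II alone and 0.909% (0.837 to 0.986) of those with neither.

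RNA pol II after weaning met only 3 of the 10324 doubly acetylated peaks without RNA pol II, 0.0291% (0.00988 to 0.0854), and 10 of the 483 with RNA pol II alone, 2.07% (1.13 to 3.77). The last interval overlaps that of the regions, 3.04 to 5.44%. Without those that touched H3K9me3 the regions had 1.08% (0.602 to 1.92), and the 483 peaks were not recounted in this way. The 483 peaks and the regions were both chosen to have RNA pol II before weaning.

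The regions were much wider than other H3K27ac peaks, as the choice favours. Their median width was 1103.5 bp (quartiles 772.75 and 1597 bp, range 200 to 6135 bp), against 710 bp for the doubly acetylated peaks without RNA pol II, 638 bp for those with RNA pol II alone and 312 bp for those with neither. Of the 1056 regions, 1023 were wider than the median of all H3K27ac peaks, 343 bp. Together they covered 1.36 Mb of the 34.9 Mb under H3K27ac peaks.

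Wide peaks have more room to meet another peak, so H3K27ac after weaning was compared within classes of width. Among peaks over 803 bp, H3K27ac was kept at 735 of 771 regions, 95.3% (93.6 to 96.6), and at 3542 of 4302 doubly acetylated peaks without RNA pol II, 82.3% (81.2 to 83.4). Between 558 and 803 bp the shares were 86.3% (80.2 to 90.8) of 161 regions and 63.9% (62.0 to 65.8) of 2481 peaks. Between 343 and 558 bp they were 92.3% (84.96 to 96.2) of 91 regions and 48.4% (46.3 to 50.5) of 2207 peaks.

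The widest class is open upward, and the regions in it were wider than the peaks without RNA pol II, with medians of 1354 and 1176 bp among those that kept H3K27ac and 1184.5 and 1018 bp among those that did not. If the doubly acetylated peaks without RNA pol II had the regions' mix of widths, 74.7% of them would have kept H3K27ac (76.1% with classes of 500 bp), compared with 62.9% as observed and 93.5% at the regions. For H3K9ac after weaning, the comparison by width class changed in the narrower classes when the regions that touched H3K9me3 were left out. In the class over 803 bp, H3K9ac was found at 15.05% (12.7 to 17.7) of the regions and 11.2% (10.3 to 12.2) of the doubly acetylated peaks without RNA pol II. In narrower classes the shares were 11.2 and 6.33% between 558 and 803 bp, 12.1 and 3.72% between 343 and 558 bp, 47.4 and 1.44% between 248 and 343 bp, and 100 and 1.86% up to 248 bp. Without regions that touched H3K9me3, the regions had 14.95% (12.6 to 17.6) over 803 bp, 10.1% (6.29 to 15.7) between 558 and 803 bp and 6.98% (3.24 to 14.4) between 343 and 558 bp. The first of these intervals stays above that of the peaks without RNA pol II, and the last 2 overlap theirs, 5.44 to 7.36% and 3.003 to 4.59%. Between 248 and 343 bp, 8 such regions were left, and H3K9ac was found at none (0 to 32.4%).

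**Figure D2:**
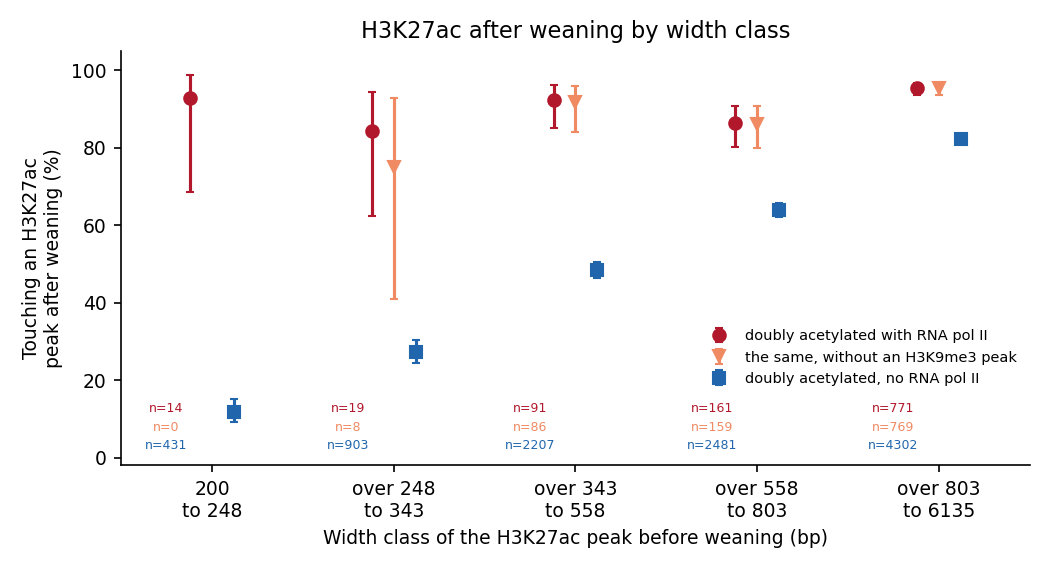
Share of peaks that touched an H3K27ac peak after weaning (vertical axis, percent, with 95% Wilson intervals) in 5 classes of width (horizontal axis, bp), for the doubly acetylated regions with RNA pol II, for the same without those that touched H3K9me3, and for doubly acetylated peaks without RNA pol II. The last rise from 11.8% in the narrowest class to 82.3% in the widest, while the regions lie between 84.2% and 95.3%. Without those that touched H3K9me3, no region is left in the narrowest class and 6 of 8 (75%) kept H3K27ac in the next.

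The 34 regions that touched H3K9me3 at either time point differed from the 1022 that did not in width and in the share with H3K9ac and RNA pol II after weaning. The 34 were narrow, with a median of 267.5 bp (200 to 2036 bp), and the 1022 were wide, with a median of 1125 bp (263 to 6135 bp). All 14 regions up to 248 bp wide were among the 34. Of the 34 regions, 32 had H3K27ac, 31 had H3K9ac and 32 had RNA pol II after weaning. Of the 1022 regions, 955 had H3K27ac, 93.4% (91.8 to 94.8), 137 had H3K9ac, 13.4% (11.5 to 15.6), and 11 had RNA pol II after weaning, 1.08% (0.602 to 1.92).

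H3K27ac after weaning thus had a like share in either set, whereas 32 of the 43 regions with RNA pol II after weaning belonged to the 34 with H3K9me3. Leaving out the 34 lowered the share with RNA pol II after weaning from 4.07 to 1.08%. H3K27ac after weaning covered a median of 100% of the width of those of the 34 that kept it, against 54.8% in the other set. The 34 were narrow and no listed peak is under 200 bp, so a touching peak easily covers most of such a region. Coverage was not compared at like widths. The RNA pol II peaks before weaning at the 34 were wider, with a median of 539.5 bp (224 to 1091 bp), than the 1105 at the other regions, with a median of 272 bp (200 to 1186 bp).

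**Figure D3:**
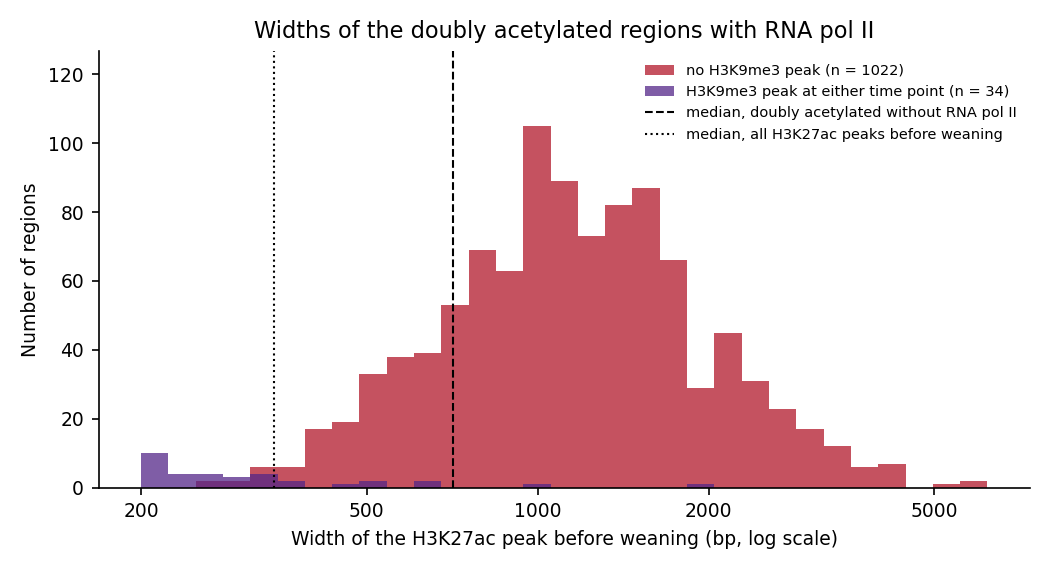
Number of doubly acetylated regions with RNA pol II (vertical axis) by width of the H3K27ac peak before weaning (horizontal axis, bp, log scale), with the 1022 regions without H3K9me3 and the 34 with H3K9me3 drawn over each other. Most of the 34 lie near the lower end of 200 bp, left of the dotted line at 343 bp, and most of the 1022 lie to the right of the dashed line at 710 bp.

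Among the 34 regions, 27 had a peak in all 8 lists, active and repressive marks together at both time points. Other H3K27ac peaks before weaning cannot have all 8, since the choice left them without H3K9ac or RNA pol II. The count therefore has no comparison in the other classes. The widest of these lay at chr5:100987477-100988120 (644 bp). There RNA pol II had a peak of 978 bp before and 1304 bp after weaning, H3K9ac of 660 and 970 bp, and H3K9me3 of 1348 and 2131 bp, all wider than the H3K27ac peak itself. The next widest, at chr18:7793070-7793561 (492 bp), had another form, with peaks of 489 bp for H3K9ac, 301 bp for RNA pol II and 276 bp for H3K9me3 before weaning, all narrower than the H3K27ac peak. A region of 470 bp at chr23:11035130-11035599 was like the first, with RNA pol II peaks of 1091 and 960 bp and H3K9me3 peaks of 1114 and 1298 bp. Of the 10 widest regions with a peak in all 8 lists, 9 had RNA pol II and H3K9me3 peaks before weaning that were both wider than the H3K27ac peak, and at 4 the H3K9ac peak was wider too.

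The H3K9me3-bearing regions were spread over 15 chromosomes, and 8 of the 34 were on chromosome 17. Of these, 7 lay between 50 and 52 Mb, where they made up every region of the interval. The widest of the 34, at chr17:53141302-53143337 (2036 bp), was of another form. Its H3K9me3 peak before weaning was 231 bp near its right end, at 53142945 to 53143175, and an H3K9ac peak at either time point had exactly the same start and end. H3K9me3 after weaning began on the same base and was 203 bp wide.

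Of the 1022 regions without H3K9me3, the usual state after weaning was H3K27ac alone. H3K27ac was the only peak after weaning at 811 regions, none with H3K9me3, which is 76.8% of all 1056. This pattern was not counted in the other classes. Over all 74249 H3K27ac peaks, 20697 touched H3K27ac and only 1491 touched H3K9ac after weaning. H3K27ac without H3K9ac was thus the usual state of kept peaks in the whole list and is not particular to the regions. A further 133 regions, 12.6%, had both acetylations and no RNA pol II or H3K9me3, 8 had H3K27ac with RNA pol II and no H3K9ac, and 3 had all 3 active marks. Only 1 had H3K9ac without H3K27ac. No list after weaning had a peak at 67 regions, 1 of which touched H3K9me3 before weaning.

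The 3 regions that kept all 3 active marks without H3K9me3 lay on chromosomes 5, 28 and 17. The widest, at chr5:104056812-104060416 (3605 bp), had an RNA pol II peak of 631 bp before and 241 bp after weaning, and the peak after weaning began 9 bp before the earlier one. H3K9ac fell from 3 peaks, of 273, 364 and 207 bp, to 1 of 200 bp, and H3K27ac after weaning was split into 4 peaks that covered 42.7% of the region. The H3K9ac peak after weaning, at 104058281 to 104058480, lay inside the former RNA pol II peak.

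The second, at chr28:24904433-24906559 (2127 bp), had an RNA pol II peak of 1026 bp before weaning that started outside the region, and one of 200 bp after weaning. Its single H3K9ac peak was 690 bp before and 536 bp after weaning, and H3K27ac after weaning covered 39.8% of it. The third, at chr17:64115703-64116279 (577 bp), kept its marks with less change in width, with H3K9ac peaks of 427 and 398 bp, RNA pol II peaks of 415 and 237 bp, and 72.4% of its width under H3K27ac after weaning. All 11 RNA pol II peaks after weaning at regions without H3K9me3 were narrow, from 200 to 241 bp with a median of 200 bp, near the lowest width in the list, whereas the 32 at the regions with H3K9me3 had a median of 584 bp (219 to 1304 bp).

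The regions without a peak in any list after weaning were not confined to narrow ones. The 5 widest were 2618 bp (chr17:18908523-18911140), 1857 bp (chr17:65418258-65420114), 1808 bp (chr1:37865811-37867618), 1726 bp (chr29:50184942-50186667) and 1721 bp (chr18:53039715-53041435). Of the 5, 4 had 1 RNA pol II peak before weaning, of 219 to 266 bp, and the region on chromosome 18 had 2, of 470 and 204 bp. The region on chromosome 29 had the widest H3K9ac peak of the 5, 751 bp, and the others had H3K9ac peaks of 200 to 302 bp.

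Over all 69 regions without H3K27ac after weaning, the H3K27ac peak before weaning had a median of 870 bp, against 1121 bp at the 987 that kept it. The widest H3K9ac peak of a region had a median of 268 bp in the former and 363 bp in the latter, and the widest RNA pol II peak one of 256 and 284 bp. All 3 marks were thus narrower before weaning at the regions that then lacked H3K27ac, and no value of peak height was used here with which to compare their strength.

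Regions differed among themselves in a graded way. The 1022 regions without H3K9me3 were split into 3 groups of near-equal size by the width of the H3K27ac peak, and H3K27ac was kept at 89.2% (85.4 to 92.05), 94.1% (91.06 to 96.1) and 97.1% (94.7 to 98.4) from the narrowest to the widest group. H3K9ac after weaning was found at 9.65% (6.95 to 13.2), 11.5% (8.53 to 15.3) and 19.1% (15.2 to 23.6). The outer groups differed beyond counting error for both marks, and neighbouring groups had overlapping intervals in all cases.

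The width of the H3K9ac peak before weaning graded the regions more steeply for the same mark. With the regions split in the same way by their widest H3K9ac peak, H3K9ac after weaning was found at 4.09% (2.45 to 6.75) of those up to 290 bp, at 12.4% (9.30 to 16.3) of the middle group and at 23.8% (19.5 to 28.5) of those over 437.7 bp, and these 3 intervals did not overlap. The median H3K27ac width rose over these groups from 970.5 to 1135 and 1366 bp. Split by the widest RNA pol II peak, H3K9ac after weaning was found at 13.0% (9.84 to 16.9), 13.4% (10.2 to 17.5) and 13.8% (10.6 to 17.9), with no order beyond counting error.

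The 137 regions without H3K9me3 that kept H3K9ac also kept H3K27ac in 136 cases. They had a median H3K27ac width of 1394 bp and a median widest H3K9ac peak of 489 bp before weaning, compared with 1099 and 339 bp at the 885 regions without H3K9ac after weaning. H3K27ac after weaning covered a median of 64.4% of the former and 51.2% of the latter. The H3K9ac peaks after weaning were narrow themselves, with a median of 252.5 bp (200 to 819 bp).

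Inside a region, the RNA pol II and H3K9ac peaks varied in number and place. A single RNA pol II peak was the rule, at 953 regions, and 103 had 2 to 4. A single H3K9ac peak was found at 735 regions, 2 at 243, and up to 6 at others. H3K9ac peaks sat near the middle of the H3K27ac peak, with 63.0% of their centres in the inner 50% of its width and 95.8% of the peaks wholly inside. RNA pol II peaks sat further out, with 42.7% of centres in the inner 50% and 67.1% of the peaks wholly inside. The RNA pol II values are over 1179 pairs of region and peak. The 39 peaks that touched 2 regions are counted at each and cannot be wholly inside, which adds to the contrast. No H3K9ac peak touched 2 regions. The median distance from the centre of the H3K27ac peak was 307 bp for RNA pol II (quartiles 151.5 and 505 bp) and 241 bp for H3K9ac (90 and 467 bp).

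In 851 regions, 80.6%, the 3 marks shared bases, with a median of 216 bp. In the other 205 regions RNA pol II and H3K9ac each met the H3K27ac peak but not each other at the bases it covered. The most shared length was 1343 bp, at chr23:7235680-7239144 (3465 bp), where RNA pol II peaks of 490 and 861 bp met H3K9ac peaks of 482 and 1212 bp, and another RNA pol II peak, of 866 bp, met no H3K9ac peak. An example of the other kind lay at chr1:68549506-68550763 (1258 bp), where the H3K9ac peak ended at 68550162 and the RNA pol II peak began at 68550507. The region with the least sharing above 0 was chr4:94649630-94650489 (860 bp), where H3K9ac ended on the base on which RNA pol II began, and both acetylations were kept after weaning.

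At the edge of the selection, the smallest overlap of a region with RNA pol II was 1 bp, and 8 of the 1179 pairs of region and RNA pol II peak shared 20 bp or less. Just outside it, 154 doubly acetylated peaks without RNA pol II had an RNA pol II peak within 200 bp. H3K27ac was kept at 30 of the 35 regions that shared 100 bp or less with RNA pol II, 85.7% (70.6 to 93.7), at 119 of the 154 peaks just outside, 77.3% (70.04 to 83.2), and at 62.5% (61.5 to 63.4) of the 9892 doubly acetylated peaks with no RNA pol II within 1000 bp. The median widths of these sets were 699, 714.5 and 708 bp. The intervals of the sets on either side of the edge overlap. H3K9ac after weaning was found at 8.57%, 4.55% and 7.23% of the same sets, with no order.

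After weaning, H3K27ac was in pieces at many regions. Each region was 1 H3K27ac peak before weaning by the choice, so a split could be seen only after weaning. Peaks after weaning that span several peaks before weaning were not counted. Of the 987 that kept it, 641 touched 1 H3K27ac peak after weaning, 245 touched 2 and 101 touched 3 to 6. Their median widths before weaning were 946, 1514 and 2462 bp. The H3K27ac peaks after weaning at the regions numbered 1474, 4.84% of that list, and had a median of 396 bp, compared with 287 bp for the rest of the list. They covered a median of 55.7% of the width of a region that kept H3K27ac (quartiles 40.2 and 71.8%).

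A similar coverage was seen at the doubly acetylated peaks without RNA pol II that kept H3K27ac, 55.0% (quartiles 38.7 and 72.5%). In the class over 803 bp the medians were 51.8 and 49.1%, and 46.1 and 36.5% of the peaks that kept H3K27ac had it in 2 or more pieces.

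The centres of RNA pol II peaks were covered by H3K27ac after weaning more often than the mean base of a region. Of the 1014 RNA pol II centres that lay inside a region with H3K27ac after weaning, 825 were covered by an H3K27ac peak after weaning, 81.4% (78.8 to 83.6), compared with a mean of 56.4% of all bases of these regions. The share of covered centres was 81.2% where H3K27ac was in 1 piece, 82.3% in 2 and 80.1% in 3 or more. Around the 1140 RNA pol II peaks at the regions, H3K27ac after weaning covered 73.2% of the centres, 39.9% of the positions 300 bp away, 18.6% at 1000 bp and 5.92% at 2000 bp.

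H3K27ac before weaning reached further, covering 95.2% of the centres, 77.0% at 300 bp, 78.5% at 500 bp, 52.2% at 1000 bp and 23.0% at 2000 bp. The choice required H3K27ac before weaning to meet RNA pol II, and it favours wide peaks. The level of H3K27ac before weaning near the centre and its longer reach are therefore no result. H3K9ac covered 63.9% of the centres before weaning and 25.7% of the positions at 500 bp, and after weaning 8.16% and 1.62%. For H3K9ac before weaning and for H3K27ac at both time points, the steepest drop lay within the first 300 bp.

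**Figure D4:**
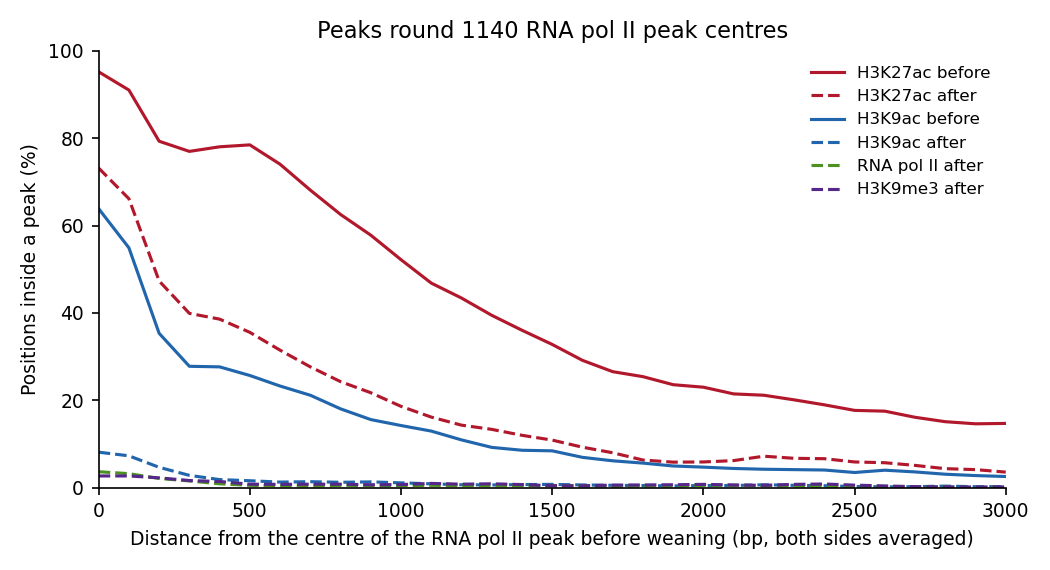
Share of positions inside a peak (vertical axis, percent) by distance from the centre of the RNA pol II peak before weaning (horizontal axis, bp, both sides averaged), over the 1140 RNA pol II peaks at the regions, for 6 lists. H3K27ac after weaning falls from 73.2% at the centre to 39.9% at 300 bp. H3K27ac before weaning falls from 95.2% at the centre to 77.0% at 300 bp and 52.2% at 1000 bp, and the choice favours its level and reach.

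The 5 widest regions differed in this. At chr18:48668515-48674649 (6135 bp), 6 H3K9ac peaks and 1 RNA pol II peak of 246 bp before weaning were followed by 6 H3K27ac peaks after weaning, of 225 to 1128 bp, which covered 56.3% of the region. The widest of them, 1128 bp, contained the RNA pol II site at 48668603 to 48668848, at the left end of the region. At chr17:55749420-55755197 (5778 bp), 2 RNA pol II peaks of 798 and 357 bp and 5 H3K9ac peaks were followed by 6 H3K27ac peaks and 1 H3K9ac peak of 402 bp, and both RNA pol II sites met H3K27ac after weaning.

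At chr25:34854361-34859539 (5179 bp), 3 RNA pol II peaks of 402, 265 and 333 bp lay toward the right end, and 5 H3K27ac peaks after weaning covered 67.6%. At chr4:94561358-94565788 (4431 bp), the RNA pol II peak of 231 bp was apart from all 4 H3K9ac peaks, and 61.7% of the region remained under H3K27ac. The RNA pol II site, at 94565536 to 94565766, was not part of that, since the last H3K27ac peak after weaning ended at 94565292. At chr26:11114933-11119322 (4390 bp), the fifth widest, a single H3K27ac peak of 200 bp was left, 4.56% of the region. It began on the same base as the RNA pol II peak before weaning, 11117321, and ended 20 bp before it.

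Such equal boundaries were common. Over all pairs of touching peaks of 2 lists at the regions, 744 starts or ends fell on the same base, whereas offsets of 1 to 10 bp had on average 41.4 starts or ends each. The excess was as plain in the rest of the lists, with 6495 against 275.4. At the regions, 716 of 8676 touching pairs, 8.25%, had an equal start or end, and elsewhere 6160 of 51406, 11.98%. Every list had the 1 input as its background in peak calling, and the part of the input in the equal boundaries was not tested.

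A start or end shared by 2 of the 3 lists of the selection was found at 171 regions. Without them, H3K27ac after weaning was found at 94.1% (92.4 to 95.5) of 885 regions, H3K9ac after weaning at 14.4% (12.2 to 16.8), RNA pol II after weaning at 2.82% (1.92 to 4.14), and H3K9me3 at 1.47% before and 1.81% after weaning. The 171 regions had H3K9me3 before weaning in 10.5% of cases (6.76 to 16.02) and RNA pol II after weaning in as many.

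Seen from the polymerase, 1140 of its 2056 peaks before weaning lay at the regions, 55.4%, and 39 of these touched 2 regions. Over all 2056, 396 were kept after weaning, 19.3%, and without those that touched H3K9me3 21 of 1595, 1.32% (0.863 to 2.004). Of the 1140, 46 were kept after weaning, 4.04% (3.04 to 5.34), and at H3K27ac without H3K9ac 7 of 428 were kept, 1.64% (0.794 to 3.34). By contrast, 262 of the 397 RNA pol II peaks at neither acetylation were kept, 66.0% (61.2 to 70.5), and 335 of these 397 touched H3K9me3. At H3K9ac without H3K27ac, 80 of 90 were kept and 85 of 90 touched H3K9me3. With peaks touching H3K9me3 left out, 13 of 1105 RNA pol II peaks at the regions were kept, 1.18% (0.689 to 2.00), near the 1.32% of the whole list, 2 of 423 at H3K27ac without H3K9ac, 0.473% (0.130 to 1.71), and 4 of 62 at neither acetylation, 6.45% (2.54 to 15.4).

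Seen from H3K9ac, the regions held 1489 of its peaks before weaning, 10.4% of the list. These had a median of 312 bp, compared with 270 bp at other H3K27ac peaks and 226 bp away from H3K27ac. They were kept in 11.3% of cases (9.84 to 13.1), against 6.08% (5.66 to 6.53) of the 11460 at other H3K27ac peaks and 5.78% (4.69 to 7.11) of the 1435 away from H3K27ac. Without the peaks that touched H3K9me3 the share at the regions was 9.48% (8.08 to 11.1), still above both other intervals.

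The same selection made on the lists after weaning gave 175 H3K27ac peaks, with a median width of 325 bp, and 170 of them touched H3K9me3. Of the 175, 32 touched one of the 1056 regions. Only 5 of the 175 were free of H3K9me3, and 3 of these 5 touched a region.

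The regions were found on all 29 autosomes and the X chromosome, unevenly. Over all chromosomes there were 14.2 regions per 1000 H3K27ac peaks before weaning, or 0.397 per Mb. Chromosome 3 had the most regions, 91, and the highest rate, 23.0 per 1000 (18.8 to 28.2), followed by chromosome 23 with 52 and 21.8 (16.7 to 28.5) and chromosome 19 with 84 and 19.6 (15.9 to 24.2). The X chromosome had 3 regions, 2.73 per 1000 (0.930 to 8.002), and chromosomes 22, 24, 26 and 27 had between 6.26 and 7.31. Per Mb, chromosome 19 was the richest, with 1.31.

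**Figure D5:**
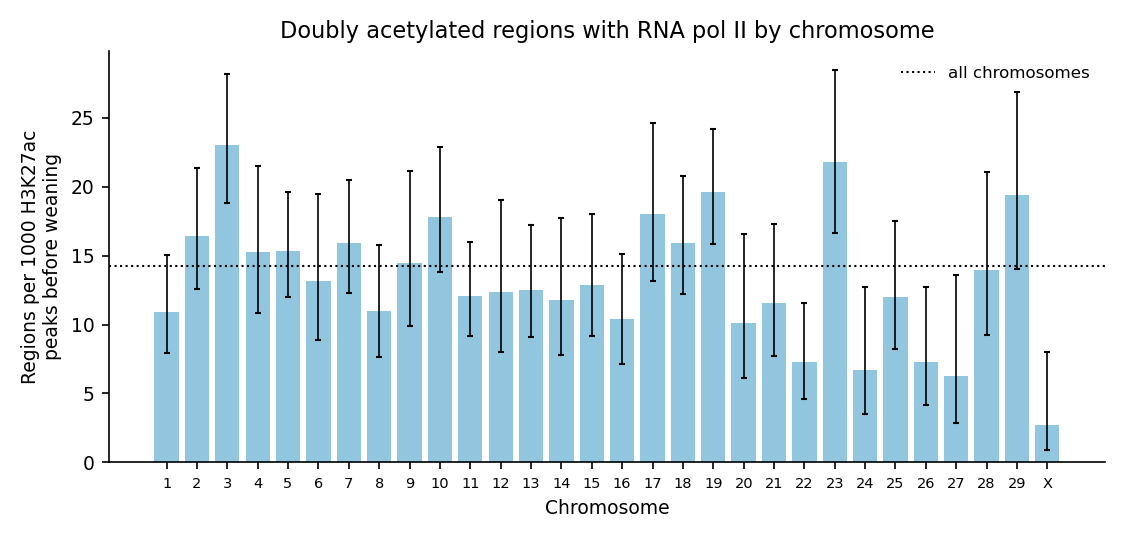
Doubly acetylated regions with RNA pol II per 1000 H3K27ac peaks before weaning (vertical axis, bars with 95% Wilson intervals) on each chromosome, with the value over all chromosomes, 14.2, as a dotted line. Chromosomes 3, 19 and 23 lie above the line with their whole interval, and chromosomes 22, 24, 26, 27 and X lie below it.

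The spacing of the regions varied widely. The median gap to the next region on a chromosome was 681472 bp, but 99 of the 1026 gaps were under 2 kb and 124 under 10 kb, and the smallest was 59 bp, so that regions were not all separate sites at this scale. Of 2291 windows of 1 Mb with H3K27ac before weaning, 621 held a region and 389 of these held 1. Another 28 windows held 5 or more, 173 regions in all. The richest, on chromosome 3 from 20000001 to 21000000, held 12 regions among 140 H3K27ac peaks, and 11 kept H3K27ac but none had H3K9ac after weaning. On chromosome 19 from 43000001 to 44000000 all 10 regions kept H3K27ac and 2 kept H3K9ac, and on chromosome 29 from 44000001 to 45000000 all 9 kept H3K27ac and 1 kept H3K9ac.

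Another of these windows stood apart. On chromosome 17 from 51000001 to 52000000, 6 of only 7 H3K27ac peaks were regions, all 6 touched H3K9me3, and all kept both acetylations. With each chromosome divided into 10 equal stretches, the last stretch held 14.7% of all H3K27ac peaks before weaning but 8.996% of the regions, 8.70 per 1000. The second stretch held 12.5% of the regions, 19.6 per 1000.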

How the data were processed

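The deposited lists, 1 per library, hold for each peak a chromosome name and the positions (in bp) of its first and last base, with no height or p-value. By the study's methods, the authors aligned reads with BWA to UMD3.1.1, kept unique alignments with fewer than 2 mismatches, and called peaks with MACS2 at default settings against the input. The submitters' processing notes also list Trim Galore 0.4.1. Unique alignment removes reads from long repeats, and 1 input served all lists. The part of either in the overlap of lists was not tested. Read depth was not used here.

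The lowest width was taken as 200 bp, with both ends included. Overlaps were counted in Python 3.11.15 with pandas 2.3.3 and numpy 2.4.6, were checked on simulated peaks of known overlap, and required 1 bp. Width classes were the quartiles of all H3K27ac widths before weaning, the top one divided at its median. Groups came from the labels. With 1 library per group no test was run, and shares have 95% Wilson intervals.

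Regions were named by rule: the 5 widest, up to 10 widest with peaks in all 8 lists (of which 3 are described), the 5 widest with all active marks and no H3K9me3 after weaning, the 5 widest with no peak after weaning, and those with least and most shared length. The widest region with H3K9me3 and the least shared length above 0 were chosen after their values were seen. The selection of regions and lists was made with earlier results of these data known. A planned account of sequence and gene context was left out, since no genome of this build was at hand. The alternatives tried are given in the closing section.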

Additional observations from a re-analysis of the deposited data

How the results depend on the processing

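Of 78 recomputed values, 49 moved by less than the counting interval (for the number of regions and the ratio of widths, by less than 1.5 times) and 29 moved further. No paired analysis was possible because each group holds 1 library.

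A reciprocal overlap of 50% left 81 regions, of which 83.95% had H3K27ac, 19.8% H3K9ac and 14.8% RNA pol II after weaning, and 8.64% H3K9me3 at each time point. It removes regions much wider than the RNA pol II or H3K9ac peaks they touch. Exchanging the RNA pol II lists, as the study's text would have it, left 46 regions, with shares of 97.8, 73.9, 93.5, 63.04 and 69.6% for H3K27ac, H3K9ac and RNA pol II (there the list labelled before) after weaning and H3K9me3 before and after weaning. The description of the regions therefore rests on the labels.

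Without regions with a peak in all 8 lists, H3K9ac after weaning moved to 13.7%, RNA pol II to 1.55%, and H3K9me3 to 0.389% before and 0.583% after weaning. Without regions up to the median width, RNA pol II moved to 1.86% and H3K9me3 to 0.587% and 0.880%. Merging peaks within 1 kb moved H3K9ac to 18.9%, and extending the other list by 1 kb moved H3K27ac to 95.7% and H3K9ac to 18.6%. Counting RNA pol II peaks in place of H3K27ac peaks moved H3K27ac to 90.9%. Width classes of 500 bp moved the width-adjusted share of the doubly acetylated peaks without RNA pol II from 74.7 to 76.1%.

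Chosen after seeing the data, leaving out regions with H3K9me3 moved H3K9ac to 13.4% and RNA pol II to 1.08%. Leaving out regions with an equal boundary moved RNA pol II to 2.82% and H3K9me3 to 1.47% and 1.81%. Counting starts from 0 left each value within its interval, as did keeping chromosomes 1 to 29 and X, requiring 50% of the narrower peak, and leaving out chromosome 17 from 50 to 52 Mb.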
